A study of Homo sapiens with 6 samples.

Results

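The circadian repressor genes encode the negative arm of the mammalian clock, and their chromatin was described here by the histone mark H3K27ac in SU-CCS-1 cells. The 9 genes were the period genes PER1, PER2 and PER3, the cryptochrome genes CRY1 and CRY2, the REV-ERB receptor genes NR1D1 and NR1D2, and the DEC genes BHLHE40 and BHLHE41. They were taken by name, by their known role in the clock, from 20015 protein-coding genes. For each gene, H3K27ac peaks were collected that overlapped its annotated body or lay within 50 kb of it, which gave 49 of the 30784 peaks in the list. A peak counted as a promoter peak of a gene when it lay within 3 kb of any start site of that gene.

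SU-CCS-1 is an established human clear cell sarcoma (CCS) line whose genotype is given as EWSR1::ATF1 (EA1), a fusion that keeps the DNA-binding domain of ATF1. Chromatin immunoprecipitation followed by sequencing (ChIP-seq) was run on 3 samples with an anti-H3K27ac antibody and on 3 input samples, which were sonicated chromatin without antibody. All 6 samples came from this line, carried the fusion and had no treatment in their labels, so nothing could be compared with fusion-free cells or between times of day. The deposited file was 1 merged list of peak positions with no value per sample, so no error between replicates could be given, and widths and counts describe that list alone.

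In the mammalian clock, the activators CLOCK and BMAL1 bind E-boxes in the promoters of these repressor genes and switch them on. The PER and CRY proteins then enter the nucleus and inhibit CLOCK and BMAL1, the DEC proteins compete for E-boxes, and the REV-ERB receptors shut down BMAL1 through ROR elements. D-boxes, bound by the activators DBP, TEF and HLF and by the repressor NFIL3, give a further input, and PER1 is also a known target of cyclic AMP signalling through ATF/CREB sites. H3K27ac marks active promoters and enhancers, and it does not report the phase of the clock or the amount of transcript.

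Marker genes of several lineages were looked at as a description, which cannot establish the identity of the line. Of 8 melanocytic and neural crest markers, SOX10, MITF, PMEL, MLANA, S100B and DCT had a promoter peak and the pigment enzyme genes TYR and TYRP1 had none. None of the 5 markers of other lineages (PTPRC, EPCAM, PECAM1, MYOD1 and MYOG) had one.

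All 9 repressor genes had at least 1 promoter peak, against 12691 of the 20015 protein-coding genes (63.4%, 95% Wilson interval 62.7 to 64.1). For 9 of 9 the same interval runs from 70.1% to 100%, and it covers counting alone. The 9 genes were chosen by name and not sampled at random, so setting these intervals side by side is not a test. The start site of the MANE Select transcript, the reference transcript of each gene, lay inside a peak in 8 of the 9 genes, against 54.1% of all genes with such a transcript. The exception was PER1. Of the 49 peaks, 14 were promoter peaks of the repressor genes themselves, 27 lay at start sites of other genes, coding or not, and 8 (16.3%) were distal, more than 3 kb from every annotated start site. In the whole list 11928 of the 30784 peaks were distal, but the list is not limited to windows placed around genes. No body of the 9 genes held a peak away from its start sites, and the share of all genes without such a peak is not given here.

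**Figure D1:**
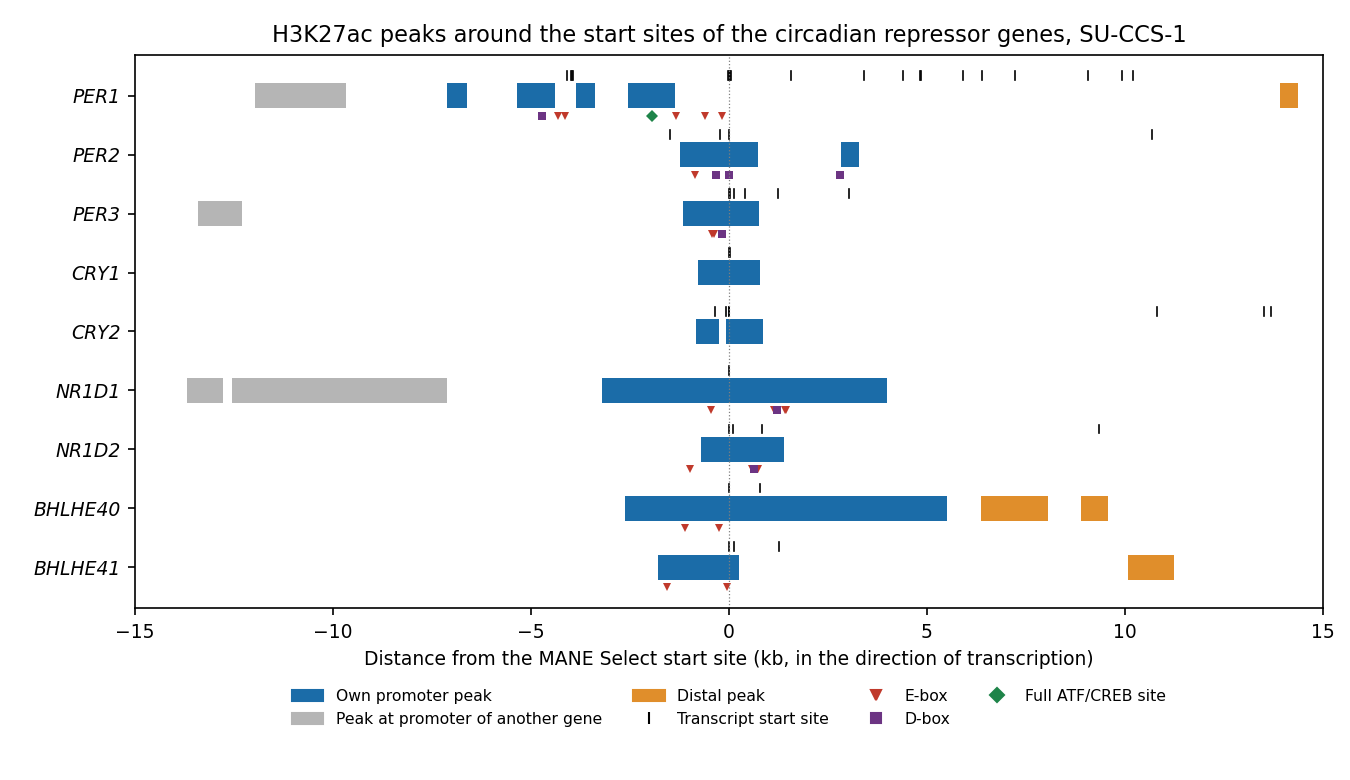
Peaks within 15 kb of the MANE Select start site of each of the 9 genes, plotted in the direction of transcription (x axis, kb). Blue bars are the gene's own promoter peaks, grey bars peaks at promoters of other genes and orange bars distal peaks. Black ticks are transcript start sites, and red, violet and green symbols are E-boxes, D-boxes and the full ATF/CREB site. These motifs were searched across the promoter peaks and at least 1.5 kb to each side of the MANE start, and flanks beyond were not searched. The blue bar covers the start site in 8 genes, and in PER1 the 4 blue bars all lie upstream of it.

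The sequences under these peaks are given here for the elements named above, each with 30 bases on either side, in the hg38 build and 5′ to 3′ in the direction of the gene. The first set shows the E-boxes (CACGTG, in capitals), and for CRY1 and CRY2, which had none, the variant CACGTT, which reads AACGTG on the gene's strand in both. For PER3, NR1D1 and NR1D2 the closest pair of E-boxes is shown, and for the others the E-box nearest the MANE start in a promoter peak or in a short gap between promoter peaks.
PER1 E-box at -4140, chr17:8156509-8156574, minus strand: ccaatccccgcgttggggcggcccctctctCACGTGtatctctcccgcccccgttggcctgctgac
PER2 E-box at -854, chr2:238289429-238289494, minus strand: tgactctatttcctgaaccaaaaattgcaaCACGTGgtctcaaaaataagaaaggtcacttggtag
PER3 E-box pair from -424, chr1:7783837-7783956, plus strand: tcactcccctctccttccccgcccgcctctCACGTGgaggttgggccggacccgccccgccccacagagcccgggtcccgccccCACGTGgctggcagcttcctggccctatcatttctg
CRY1 variant at -89, chr12:107093603-107093668, minus strand: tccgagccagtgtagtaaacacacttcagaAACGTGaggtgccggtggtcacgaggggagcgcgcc
CRY2 variant at -188, chr11:45847257-45847322, plus strand: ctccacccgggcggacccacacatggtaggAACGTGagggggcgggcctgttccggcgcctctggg
NR1D1 E-box pair from +1426, chr17:40099113-40099193, minus strand: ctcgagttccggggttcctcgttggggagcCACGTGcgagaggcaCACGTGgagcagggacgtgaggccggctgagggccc
NR1D2 E-box pair from +680, chr3:23945936-23946051, plus strand: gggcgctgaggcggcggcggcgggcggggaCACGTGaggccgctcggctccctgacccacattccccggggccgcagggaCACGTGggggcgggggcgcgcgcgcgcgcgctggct
BHLHE40 E-box at -245, chr3:4979162-4979227, plus strand: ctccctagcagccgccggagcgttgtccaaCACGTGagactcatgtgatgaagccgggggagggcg
BHLHE41 E-box at -48, chr12:26125050-26125115, minus strand: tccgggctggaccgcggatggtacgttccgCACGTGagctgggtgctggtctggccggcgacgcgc
Positions count from the MANE start, with upstream negative. The pairs sit 54 bases apart in PER3, 15 in NR1D1 and 50 in NR1D2, measured from the first base of one match to that of the next.

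The second set shows the only full ATF/CREB site (TGACGTCA) found in the promoter stretches of the 9 genes and 5 of their 6 D-boxes (TTATGTAA or TTACGTAA on either strand), again in capitals. Another D-box of PER2, at -3 and nearer its MANE start, is not shown.
PER1 ATF/CREB site at -1935, chr17:8154302-8154369, minus strand: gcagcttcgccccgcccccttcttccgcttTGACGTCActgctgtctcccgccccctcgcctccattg
PER1 D-box at -4723, chr17:8157090-8157157, minus strand: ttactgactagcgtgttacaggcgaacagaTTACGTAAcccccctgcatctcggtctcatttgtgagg
PER2 D-box at -328, chr2:238288901-238288968, minus strand: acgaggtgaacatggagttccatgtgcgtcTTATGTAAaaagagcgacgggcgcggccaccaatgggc
PER3 D-box at -177, chr1:7784084-7784151, plus strand: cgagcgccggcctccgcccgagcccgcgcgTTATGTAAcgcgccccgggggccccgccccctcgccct
NR1D1 D-box at +1217, chr17:40099335-40099402, minus strand: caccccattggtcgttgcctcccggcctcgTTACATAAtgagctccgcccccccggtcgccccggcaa
NR1D2 D-box at +641, chr3:23945897-23945964, plus strand: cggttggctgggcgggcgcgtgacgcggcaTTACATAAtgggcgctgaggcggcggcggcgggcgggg
The NR1D1 and NR1D2 elements of both sets lie in introns of the MANE transcripts, and all others lie upstream of the MANE start. Every sequence shown lies inside a promoter peak except the PER1 E-box, 246 bases from the nearest one, and the CRY2 variant, 56 bases from it.

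The period genes code for the PER proteins, which carry the timing of repression through their build-up and decay. PER1 (chr17:8140472-8156506, minus strand) had 4 promoter peaks, of 1190, 480, 960 and 510 bases, which summed to 3140 bases. That sum was larger than in 78.7% of the protein-coding genes with a promoter peak, while its widest single peak was larger than in 28.8% of them. None of its 19 annotated start sites lay in a peak.

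The peak nearest the PER1 MANE start ended 1367 bases upstream of it, and the next one downstream began 13914 bases into the direction of transcription, past the end of the gene. The peaks were separated by gaps of 830, 520 and 1260 bases. The 520-base gap held 4 start sites, at -3951 to -4102, so the upstream start sites of PER1 sat in a break between peaks of 480 and 960 bases. A promoter peak without any start site in a peak occurred in 8.14% of the protein-coding genes with a promoter peak and in 1 of the 9 repressor genes. The peak farthest upstream lay 2505 bases from a PER1 start site and overlapped VAMP2, and the next peak upstream, outside the 3 kb limit, lay 5575 bases away at the VAMP2 promoter. On the downstream side, the nearest peak outside the limit lay 3701 bases from a PER1 start site. The 4 peaks also fall within the annotated gene ENSG00000263620, and the mark carries no strand, so they cannot be assigned to PER1 alone.

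All 5 E-boxes searched for around PER1 lay outside its peaks. Those at -4140 and -4324 stood in the 520-base gap, 246 and 62 bases from the nearest peak, and those at -173, -608 and -1339 stood between the nearest peak and the MANE start. The full ATF/CREB site at -1935 and the D-box at -4723 were inside peaks. The search ran across the promoter peaks and at least 1.5 kb to each side of the MANE start, with no further flank. In the other 8 genes, 14 of the 15 E-boxes found in this range were inside a peak. In NR1D1 and BHLHE40 the promoter peak filled the whole range, so no E-box could fall outside it. In PER1 the range took in the gaps of 830, 520 and 1260 bases between its peaks. The peaks themselves set the range, and the share of it in peaks differed between genes and is not given here. The counts for PER1 and for the other 8 genes are therefore not a test of where E-boxes lie relative to peaks.

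PER2 (chr2:238244044-238290102, minus strand) had a promoter peak of 1970 bases over its MANE start, from -1240 to +729, and a second of 460 bases in the gene, 2100 bases further in. Their sum of 2430 bases was larger than in 68.4% of genes. The wider peak held the E-box at -854, the variant CACGTT at -197 and D-boxes at -3 and -328. PER3 (chr1:7784291-7845177, plus strand) had 1 promoter peak of 1910 bases from -1160 to +749, larger than in 55% of genes, with an E-box pair and a D-box in its upstream part. The main peaks of PER2 and PER3 covered their MANE starts, and none of those of PER1 did.

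The cryptochrome genes code for CRY1 and CRY2, which hold CLOCK and BMAL1 inactive. They had the smallest summed widths of promoter peaks among the 9 genes. CRY1 (chr12:106991364-107093549, minus strand) had 1 promoter peak of 1560 bases from -771 to +788, larger than in 41.1% of genes, and the nearest other peak lay 105.4 kb away, past the far end of the gene. Its body of 102.2 kb held no other peak.

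CRY2 (chr11:45847118-45883248, plus strand) had peaks of 590 and 930 bases, which summed to 1520 bases, larger than in 39.5% of genes. They were parted by a gap of 180 bases just upstream of the MANE start, which held 1 of its 9 start sites, at -69. The variant CACGTT at -188 fell in this gap. CRY1 carried its variant inside the peak at -89, and neither gene had the E-box CACGTG in or near its promoter peaks.

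The REV-ERB genes NR1D1 and NR1D2 code for heme-binding nuclear receptors that repress BMAL1. NR1D1 (chr17:40092793-40100589, minus strand) had 1 promoter peak of 7190 bases, from -3201 to +3988, which covered 51.2% of the gene and touched 3 of its 8 MANE exons. Among the protein-coding genes with a promoter peak, 95.6% had a smaller summed width. This peak held 4 E-boxes, 4 copies of the variant, 3 AP1 sites (TGAGTCA) and 1 D-box, and 3 of the E-boxes stood between +1145 and +1441, in an intron.

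NR1D1 also had the window most covered by peaks among the 9 genes, with 13 peaks over 27.9% of its window, more than in 99.4% of all protein-coding genes. Of the 12 peaks outside the promoter peak, 8 lay at start sites of the coding genes MED24, THRA, MSL1 and CASC3, 2 at noncoding start sites and 2 were distal, inside THRA. NR1D1 and THRA are on opposite strands and share 1075 bases at their ends. The promoter peak of NR1D1 stopped short of that overlap.

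NR1D2 (chr3:23945286-23980617, plus strand) had 1 promoter peak of 2100 bases, from -705 to +1394, larger than in 60.6% of genes. It held 3 E-boxes, at +571, +680 and +730, with a D-box at +641 between them, and a further E-box lay outside it at -987. The same peak is also a promoter peak of NKIRAS1, which overlaps it. The window held only 1 other peak, at NKIRAS1 and RPL15, so the NR1D1 and NR1D2 promoter peaks differed in width, 7190 against 2100 bases, and their windows in the number of peaks, 13 against 2.

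The DEC genes BHLHE40 and BHLHE41 code for basic helix-loop-helix repressors that respond to many stimuli besides the clock. BHLHE40 (chr3:4979437-4985323, plus strand) had the widest promoter peak of the 9 genes, 8150 bases from -2636 to +5513, larger in sum than in 96.6% of genes. It covered 93.7% of the gene and touched all 5 MANE exons. Past the end of the gene lay 3 distal peaks, at 468, 3008 and 40818 bases, and no other coding gene overlapped the window. The promoter peak held 2 E-boxes, at -245 and -1109, 2 copies of the variant and 4 AP1 sites.

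BHLHE41 (chr12:26120030-26125037, minus strand) had 1 promoter peak of 2050 bases, which lay mostly upstream, from -1803 to +246, and was larger than in 59.1% of genes. It held E-boxes at -48 and -1562 and 3 copies of the variant, and it also counted as a promoter peak of SSPN, whose annotated span it overlaps. The only other peak in the window, of 1160 bases, lay 5080 bases past the end of the gene and held 3 E-boxes. Among the 11928 distal peaks of the list, 14.1% held an E-box and 0.629% held 3 or more. That cutoff equals the count in the BHLHE41 distal peak itself, so the share is not a test of it.

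**Figure D2:**
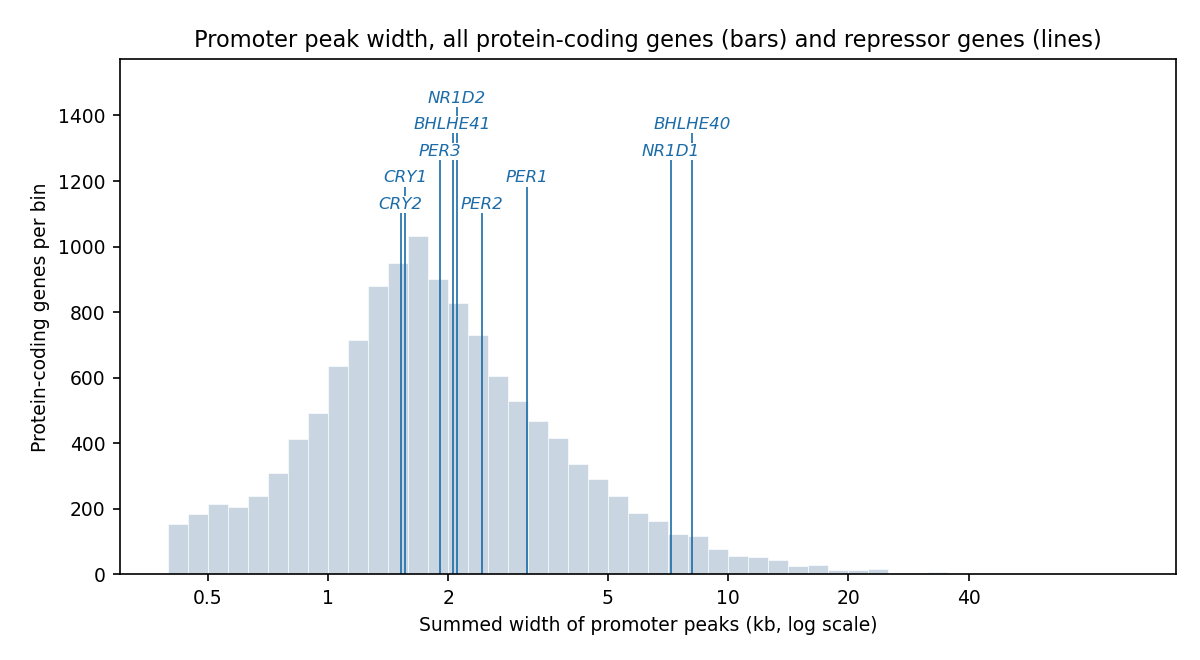
Histogram of the summed width of promoter peaks (x axis, kb, log scale) over the 12691 protein-coding genes with a promoter peak (y axis, genes per bin), with a blue line at each of the 9 repressor genes. NR1D1 and BHLHE40 lie in the upper tail at 7.19 and 8.15 kb, and the other 7 genes lie between 1.52 and 3.14 kb.

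Over the 9 genes the median summed width of promoter peaks was 2100 bases (1520 to 8150), against a median of 1760 bases (quartiles 1190 and 2835) over all protein-coding genes with a promoter peak. Of the 9 genes, 6 lay between those quartiles, and PER1, NR1D1 and BHLHE40 lay above. The widest single peak had a median of 1970 bases against 1600 bases. In the 8 genes with a peak over the MANE start, that peak reached a median of 1200 bases upstream and 826.5 bases downstream, against 665 and 849 bases over all such genes. The upstream reach ranged from 64 bases in CRY2 to 3201 bases in NR1D1, and the downstream reach from 246 bases in BHLHE41 to 5513 bases in BHLHE40.

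**Figure D3:**
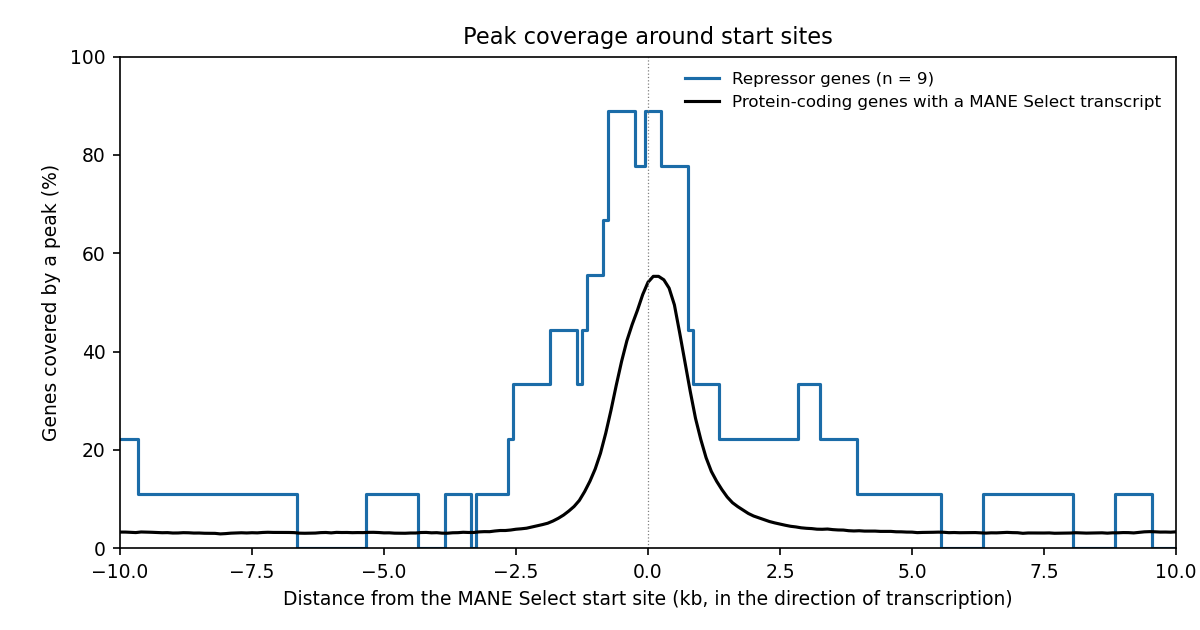
Percent of genes with a peak over each position (y axis) against distance from the MANE Select start site (x axis, kb), for the 9 repressor genes (blue steps) and for all protein-coding genes with a MANE Select transcript (black). The black curve is highest at 100 bases downstream, at 55.3%, where 8 of the 9 repressor genes were covered, and at 1000 bases upstream it stands at 16.1%, where 5 of the 9 were covered.

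The windows of body plus 50 kb held a median of 4 peaks per gene (2 to 13), against 3 (quartiles 1 and 5) over all protein-coding genes, and a median of 3.77% of their bases lay in peaks, against 2.14%. PER1 and NR1D1 held 13 peaks each and PER2 held 6, while the other 6 genes held 2 to 4. In PER1, 6 of the 9 peaks beyond the promoter lay at coding start sites of neighbours, among them HES7, VAMP2, TMEM107 and BORCS6. The 27 peaks at other genes' start sites had a median width of 1580 bases, the 14 own promoter peaks 1375 bases, and the 8 distal peaks 1050 bases. All 8 distal peaks lay downstream of the gene, 3 of them at BHLHE40, 2 at NR1D1 and 1 each at PER1, PER2 and BHLHE41. Whether a peak at a neighbour's start site bears on a repressor gene was not tested.

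To place the genes among large acetylated domains, neighbouring peaks were joined at the stitching distance of the study's methods, which lies between 5 and 25 kb, and the 17049 joined regions were ranked by summed peak width. This ranking used width and not signal. Regions past the point of slope 1 on the scaled curve numbered 879, and 1536 of the protein-coding genes (7.67%) lay at one. PER1, NR1D1 and BHLHE40 did so, 3 of the 9. The PER1 region ranked 165, with 15 peaks and 18.99 kb of summed width over 73.61 kb, and it reached the start sites of 6 coding genes, so its own promoter peaks made up 16.5% of it. The NR1D1 region ranked 193, with 17.62 kb in 5 peaks, of which 40.8% was its own promoter peak and the rest lay at noncoding start sites and at MSL1. The BHLHE40 region ranked 530, with 10.51 kb in 3 peaks and no other coding start site, and 77.5% of it was the promoter peak.

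The other 6 genes lay in regions ranked between 3377 for BHLHE41 and 8715 for CRY2. NR1D1 stayed past the slope-1 point under each of 4 other ways to build or rank the regions. BHLHE40 fell short of it with a joining distance of 25 kb and when regions were ranked by span, and PER1 with a joining distance of 5 kb and without peaks close to start sites, which left 2 of the 9 genes each time. The share of all protein-coding genes under these other ways is not given here.

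**Figure D4:**
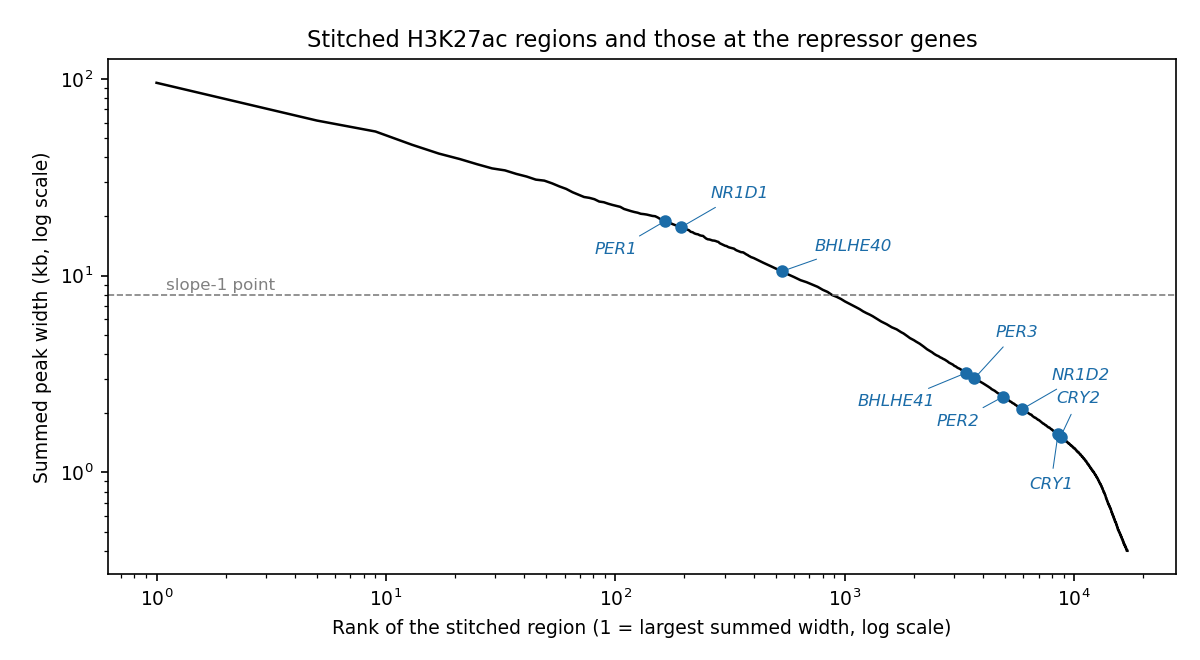
Summed peak width of joined regions (y axis, kb, log scale) against their rank (x axis, log scale). Blue points mark the region at each of the 9 genes, and the dashed line is the lowest width past the slope-1 point, 7.99 kb. PER1, NR1D1 and BHLHE40 lie above the line, and the other 6 lie below it.

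Motif matches were then counted in the promoter stretches, meaning the promoter peaks of a gene and any gap of at most 1 kb between them, on both strands. The E-box CACGTG occurred in 7 of the 9 genes, against 34.5% of the 12691 genes with a promoter peak. There were 16 matches in 31580 bases, or 5.07 per 10 kb against 2.14 over all those genes. The number of genes depended on how much of the stretch was searched. Without the gaps 6 genes held an E-box, since PER1 was lost, and within the central 500 bases of each peak 2 did. The share of all genes under these narrower searches is not given here, so these counts have no background beside them. The gene counts of the other motifs given below, apart from the full ATF/CREB site and the ROR element, were also lower in those central bases.

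A pair of E-boxes within 100 bases of each other, a feature looked for after the matches had been seen, stood in the stretches of 3 of the 9 genes (PER3, NR1D1 and NR1D2) and of 2.69% of all genes with a promoter peak. The variant CACGTT occurred in 6 of the 9 genes, at 3.8 matches per 10 kb against 2.08, and in 36.5% of all genes. All 9 genes held the E-box or the variant or both, as did 55% of all genes with a promoter peak. D-boxes occurred in 5 genes, PER1, PER2, PER3, NR1D1 and NR1D2, against 5.41% of all genes, at 1.9 per 10 kb against 0.229. The cryptochrome and DEC genes had none.

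The motifs of the ATF/CREB and AP1 families are given next. The ATF/CREB forms were examined because the fusion keeps the DNA-binding domain of ATF1. The study reported the AP1 site, bound by FOS and JUN proteins, as recurrent at EA1 binding sites in mouse tumors. In human CCS lines it did not find the AP1 site to be a significant recurrent motif at such sites. The full site TGACGTCA stood in PER1 alone, at 0.317 per 10 kb over the 9 genes against 0.26 over all, where 6.31% of genes held it. The flexible form TGANNTCA, which also takes in the full site, stood in 5 of the 9 genes and in 43.5% of all genes, at 3.8 per 10 kb against 3.59. The AP1 site TGAGTCA stood in 5 genes, CRY1, NR1D1, NR1D2, BHLHE40 and BHLHE41, at 3.48 per 10 kb against 1.24, and in no period gene. It stood in 21.7% of all genes. Of the 11 matches, 4 were in BHLHE40 and 3 in NR1D1, the genes with the widest promoter peaks, and a longer stretch is more likely to hold a match. The ROR element, scanned in a single strict form, had no match in the stretches and stood in 2.01% of all genes. A match describes letters in a window and does not show that a factor was bound, and the absence of a match concerns these letters alone.

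**Figure D5:**
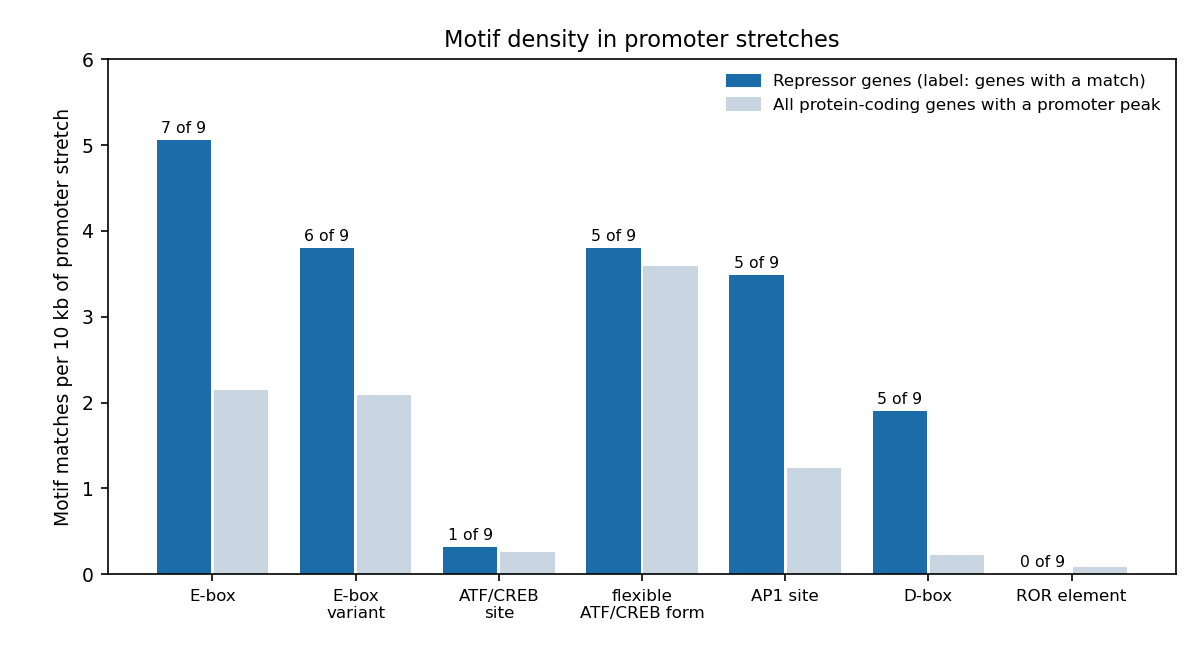
Matches per 10 kb of promoter stretch (y axis) for 7 motifs, in the 9 repressor genes (blue, labelled with the number of genes holding a match) and in all 12691 protein-coding genes with a promoter peak (grey). The E-box stands at 5.07 against 2.14 and the D-box at 1.9 against 0.229, while the full ATF/CREB site and its flexible form are close to all genes.

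Base composition bears on such counts. Promoter peaks of the 9 genes were 61.8% G and C at the median (52.9 in BHLHE40 to 70.1 in PER3), against 60.2% (quartiles 55.6 and 65.2) over all genes with a promoter peak. In windows from RefSeq (hg38) that run from 250 bases before to 50 bases after a start, the repressor genes had 12 of 35116 windows. The E-box stood in 4 of these 12, of PER1, NR1D2, BHLHE40 and BHLHE41, against 7.26% of all windows, the variant in 4 against 5.34%, and the D-box in 3, of PER2, PER3 and NR1D2, against 1.01%. These windows do not depend on the peaks. The full ATF/CREB site, the AP1 site and the ROR element were in none of the 12, and they stood in 1.85%, 4.95% and 0.285% of all windows.

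Among 19 other clock genes, 15 had a promoter peak (78.9%, 95% Wilson interval 56.7 to 91.5), which includes the activators CLOCK, BMAL1 and NPAS2 that the repressors act on. Those without one were the activator gene BMAL2, the receptor gene RORB, the output factor gene HLF and the deubiquitinase gene USP2. Of the kinase genes that time PER breakdown, CSNK1D had 10 promoter peaks with a sum of 13210 bases and CSNK1E 1 of 4330 bases. The widest of the CSNK1D peaks had 3540 bases. CSNK1D has 24 start sites, and its MANE start lay outside the peaks, as in PER1. NFIL3 and DBP, whose products act at D-boxes with opposite effect, had 10770 and 6920 bases. The 15 genes had a median summed width of 3040 bases, against 2100 bases in the 9 repressor genes, and 4 of the 19 (DBP, NFIL3, CSNK1D and CIART) lay at regions past the slope-1 point.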

How the data were processed

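Per the study's methods and the labels, the authors fixed cells with formaldehyde, sonicated the chromatin, sequenced H3K27ac and input libraries, aligned reads to hg38 with BWA 0.7.10-r789, removed duplicates with samtools, called broad peaks with MACS2 2.2.6 against input and removed peaks in listed unreliable regions. They deposited 1 list with 4 columns (chromosome, start, end, name), with no score, read count or value per sample. The methods give an approximate sequencing depth per sample and say that replicates were averaged in the signal tracks, which were not used here. How replicates were combined in the peak list, and the depth behind a peak, are not given in the sources used here. The p-value cutoff, the input and the depth set which loci were called and how wide, so width is not signal and a locus without a peak may still be acetylated. No comparison between groups and no test was possible.

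Genes, transcripts and exons came from GENCODE version 44, with genes shared by X and Y counted on X. Coordinates count from 1. Peaks were assigned with Python 3.11.15, numpy 2.4.6 and pysam 0.24.0, and the overlap functions were checked on simulated intervals. Percentiles give the share of genes with a smaller value. Promoter stretches joined promoter peaks across gaps of up to 1 kb. Sequences were read from hg38 and, for promoter windows, from RefSeq, in which all 9 genes were matched. The 9 genes were all named, of the other clock genes those without a promoter peak and those with the widest, and further genes where they share a peak or window. The genes, lists and motifs were chosen with earlier results of these data known.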

Additional observations from a re-analysis of the deposited data

How the results depend on the processing

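No paired analysis was possible because the list has no column per replicate, and for the same reason no replicate could be left out. The 14 results examined were counts, shares and medians, which have no direction that could be reversed. Of 50 alternatives over them, 17 moved a value by more than 1.5 times or, for the share of all genes, beyond its 95% interval. The other 33 stayed within those limits, which still allow the losses of single genes named here and in the ranking of joined regions. All 9 genes kept a promoter peak with a start-site window of 1 or 5 kb and with coding transcripts alone, where the share of all protein-coding genes was 61.65%, 64.79% and 61.3%. With the widest 50% of peaks the count was 8 (CRY2 lost) against 48.98% of all genes, with the widest 25% it was 6 (PER1, CRY1 and CRY2 lost) against 26.88%, and with peaks that contain a start site it was 8 (PER1 lost) against 58.25%. The number of peaks in the windows fell from 49 to 22 with a flank of 10 kb, to 30 and 15 with the widest 50% and 25% of peaks, and to 19 when a peak counted only for the nearest coding start site. The median share of a window in peaks was 6.025% with a flank of 10 kb and 2.173% with 100 kb. In the central 500 bases of peaks, genes with an E-box fell from 7 to 2, with the AP1 site from 5 to 2, with the variant from 6 to 3, and with the D-box and the flexible form from 5 to 3 each. The shares of all genes in those central bases are not given here. The width of a peak depends on depth and on the joining of neighbouring stretches, and the gaps of 520 bases in PER1 and 180 bases in CRY2 are of the order of the narrowest peak in the list, 400 bases.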

Other observations

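The 8 distal peaks near the repressor genes were searched for the same motifs. The E-box stood in 2 of them, at BHLHE40 and BHLHE41, against 14.1% of the 11928 distal peaks of the list, and the flexible form TGANNTCA stood in 3 against 45.6%. The D-box stood in 1, at NR1D1 within THRA, against 3.94%, and the AP1 site in 1, the peak next to the end of BHLHE40, against 17.5%.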
